A study of Mus musculus with 4 samples.

Results

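Class I phosphoinositide 3-kinase (PI3K) genes were read in the Achilles tendon of young and adult mice after the tendon had been cut. The members were 10 genes chosen by name: the catalytic subunit genes Pik3ca, Pik3cb, Pik3cd and Pik3cg, the regulatory subunit genes Pik3r1, Pik3r2, Pik3r3 and Pik3r5, the adaptor gene Pik3ap1 and the lipid phosphatase gene Inpp5d. All 10 were found among the 23352 rows of each of the 2 deposited gene tables, and all 10 had a mean of at least 1 FPKM (a read level per kilobase of transcript, scaled to the library) over the libraries. They were read as 2 sets of 5, formed from where each gene is known to be used and not from its values here. The members themselves were chosen with earlier results of these data known. Pik3ca, Pik3cb, Pik3r1, Pik3r2 and Pik3r3 are used in most cell types, and Pik3cd, Pik3cg, Pik3r5, Pik3ap1 and Inpp5d mainly in leukocytes.

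The mice were male and homozygous for Scx-EGFP on a C57BL/6 background, a line in which a green fluorescent protein reports the tendon transcription factor Scx. All groups carried the reporter. Mice of 7 days or of 6 months had Achilles tenotomy on the right hindlimb or a sham operation on the left, and RNA was taken 5 days later. After tenotomy the distal stump was taken free of the connective tissue around it. Each group was 1 library of pooled RNA, from 11 mice (7 days, sham), 11 (7 days, tenotomy), 5 (6 months, sham) and 9 (6 months, tenotomy). With 1 library a group the spread between animals was not measured, no test could be made, and no difference here was checked in replicates. The 4 pools are called young sham, young tenotomy, adult sham and adult tenotomy after the age at operation. The labels of both tenotomy pools also speak of uninjured tendon, and the pools were grouped by the operation named. The sources used here do not give whether sham and tenotomy limbs came from the same mice. The adult pools, of 5 and 9 mice, cannot hold the same mice throughout. Because each library is bulk tissue, more cells of a type and more RNA per cell cannot be told apart.

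Class I PI3Ks add a phosphate to a membrane inositol lipid, and the product, PIP3, draws Akt and other kinases to the membrane. In class IA enzymes a catalytic subunit is held by a regulatory subunit whose SH2 domains bind tyrosine-phosphorylated receptors and adaptors. The class IB enzyme takes its input mainly from G protein beta-gamma subunits, downstream of chemokine and complement receptors. In leukocytes the delta and gamma catalytic subunits serve adhesion, migration and the oxidative burst, and the phosphatase SHIP1, the product of Inpp5d, removes PIP3 again. The series asks how PI3K-Akt signalling acts on tenocytes and sheath cells of the regenerating tendon. RNA levels do not show the activity of the enzymes.

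The steps between low FPKM values implied 2680000 fragments in the young sham pool, 3270000 in the young tenotomy pool, 1790000 in the adult sham pool and 2410000 in the adult tenotomy pool. The members were thus seen in between 12 fragments (Pik3cg, adult sham) and 403 fragments (Pik3ca, young sham) each. Intervals of ratios between 2 libraries below are exact 95% intervals of the ratio of 2 fragment counts. Intervals of shares and of differences between ages are approximate 95% intervals. All of them cover counting error only. The counts were worked back from FPKM with the length of the longest coding transcript inside the deposited locus. For Pik3cb, Pik3r3 and Pik3ap1 no GENCODE coding transcript lay wholly inside the deposited locus, so their longest one was used. For Pik3r1 3 of 4 coding transcripts lay inside it, with at most 2923 bases and at most 1362 coding bases. The intervals rest on the worked-back depth, at which between 74.3% and 77.3% of the low genes used came out as whole fragments within 0.1. Of the 8 tenocyte genes checked, all were above 0 in every library, with Scx between 5.70 and 24.8 FPKM and Tnmd, a tenocyte membrane protein gene, between 36.9 and 301.1 FPKM. The libraries also held other tissue: 12 skeletal muscle genes summed to 17496 FPKM in the young sham pool, 37.2 in the young tenotomy pool, 41228 in the adult sham pool and 12738 in the adult tenotomy pool.

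All 5 leukocyte members had log2 ratios of tenotomy to sham above 0 at both ages, though at 7 days the counting intervals of Pik3cd and Inpp5d took in a ratio of 1, and the broadly used members lay on both sides of 0. At 7 days the 5 leukocyte members had log2 ratios of 0.31 to 1.03 with a median of 0.77, and at 6 months of 0.997 to 1.59 with a median of 1.09. Ratios on the log2 scale are log2((tenotomy FPKM + 1)/(sham FPKM + 1)), which understates differences of low genes. The median over the 12820 single-gene rows with a mean of at least 1 FPKM was 0.003 at 7 days and 0 at 6 months. The 5 broadly used members ran from -0.74 to 0.68 at 7 days (median 0.22) and from -0.99 to 0.85 at 6 months (median -0.10). At a threshold of 1 on this scale, which is 2-fold, 1 of the 10 members was higher at 7 days (Pik3ap1), where 5.16% of all rows were. At 6 months 4 of the 10 were higher (Pik3cd, Pik3cg, Pik3r5 and Inpp5d), where 9.24% of all rows were, and all 4 belong to the leukocyte set. No member was lower at that threshold, against 9.49% of rows at 7 days and 10.1% at 6 months. Pik3ap1 at 6 months (0.997) and Pik3r1 at 6 months (-0.99) lay at its edge, and Pik3ap1 passed it there under each of the 3 other scalings run.

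**Figure D1:**
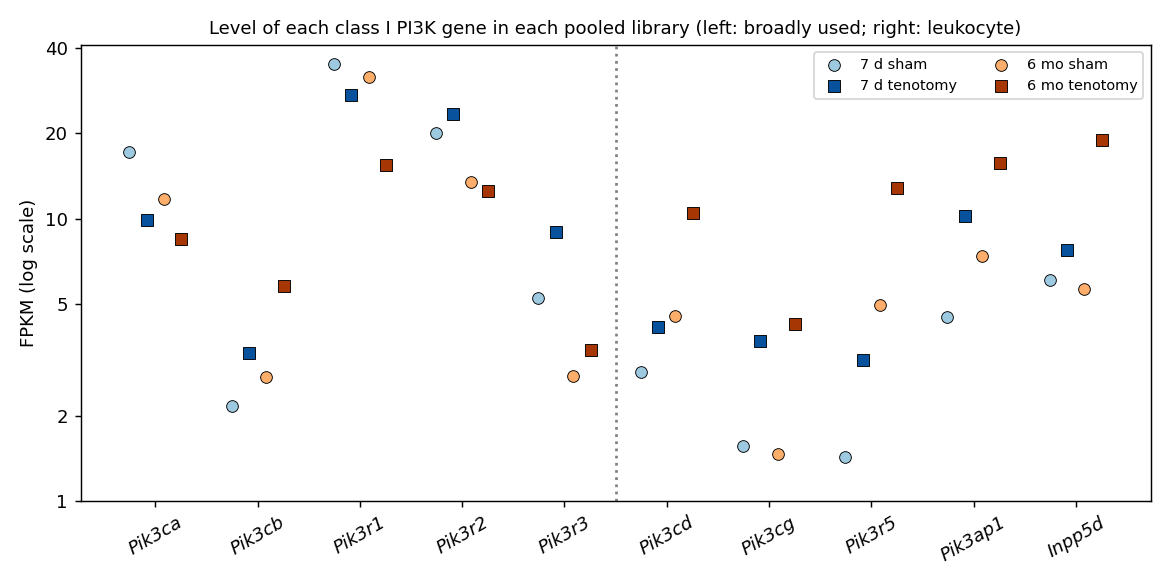
FPKM of each member (log axis) in the 4 pooled libraries, 1 point per library, with circles for sham, squares for tenotomy, broadly used genes on the left and leukocyte genes on the right. All 5 leukocyte genes and the broadly used Pik3cb are highest in the adult tenotomy pool, and Pik3ca, Pik3r1 and Pik3r2 are lowest there.

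Promoter letters are shown for 4 of the 5 leukocyte members and, beside them, for the broadly used Pik3r1. RefSeq (GRCm38.p6, the build named mm10) listed 16 start sites for the 10 members, and the 250 bases before each were searched on both strands. The letters GAGGAAGT, a form bound by the myeloid factor PU.1, were in 2 of the 8 windows of leukocyte members (Inpp5d and 1 of 2 for Pik3cg), in none of the 8 of broadly used members, and in 2.44% of all 32851 windows. The letters GGGCGG, a GC box, were in 3 of the 8 leukocyte windows (2 of Pik3cd and 1 of Pik3r5), in 7 of the 8 broadly used windows and in 32.7% of all windows. GGAA, which GAGGAAGT contains, was in 14 of the 16 windows and 93.4% of all, and TATAAA in 1 of the 16 (Pik3r1) and 12.4% of all. Stretches before the start site follow, 5′ to 3′ on the strand of the gene, with GAGGAAGT or GGGCGG in capitals on either strand (ACTTCCTC and CCGCCC on the opposite one). A match is a description of the letters and no site of binding was measured.
Inpp5d, chr1:87620192-87620311, plus strand: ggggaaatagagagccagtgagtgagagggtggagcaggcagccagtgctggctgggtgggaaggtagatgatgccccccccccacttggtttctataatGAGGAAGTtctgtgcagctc
Pik3cg, chr12:32208643-32208672, minus strand, around the match, which runs over the upstream start site: gtaactgcaacACTTCCTCtgcatctggat
Pik3r5, chr11:68432005-68432124, plus strand: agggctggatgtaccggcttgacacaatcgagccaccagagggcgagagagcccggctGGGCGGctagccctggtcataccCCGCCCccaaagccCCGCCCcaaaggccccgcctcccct
Pik3ap1, chr19:41385103-41385222, minus strand: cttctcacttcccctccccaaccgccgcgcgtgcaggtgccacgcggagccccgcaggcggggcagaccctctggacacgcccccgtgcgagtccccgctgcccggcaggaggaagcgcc
Pik3r1, chr13:101768218-101768337, minus strand: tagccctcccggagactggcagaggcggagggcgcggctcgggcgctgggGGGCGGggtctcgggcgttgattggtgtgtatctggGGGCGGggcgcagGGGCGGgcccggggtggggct
The Inpp5d match lies 13 to 20 bases before its start site, and the Pik3ap1 stretch holds neither motif in full. The window of the other Pik3r1 start site, at 101692630, held no GGGCGG, and the Pik3cd stretches are not shown.

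Pik3ca encodes the p110-alpha catalytic subunit, which works downstream of growth factor and insulin receptors. Its deposited locus is chr3:32436151-32468486 (mm10), which begins inside the gene as RefSeq and GENCODE draw it (RefSeq start site at 32397065). It stood at 17.2 FPKM in the young sham pool, 9.91 in the young tenotomy pool, 11.7 in the adult sham pool and 8.46 in the adult tenotomy pool. Both tenotomy libraries were below both sham libraries. The level after tenotomy was 1.74-fold lower at 7 days (interval 1.49 to 2.03) and 1.39-fold lower at 6 months (1.12 to 1.71). With the shorter coding length in place of the transcript length, the 6-month interval no longer left out a ratio of 1. The young sham level was above its next neighbour, the adult sham level, by more than counting error, and the remaining neighbours in the order were not.

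Pik3cb encodes p110-beta, a class IA subunit that also answers to G protein beta-gamma (chr9:99038402-99140211). It was below Pik3ca in all 4 libraries, with 2.17 FPKM in the young sham pool, 3.34 in the young tenotomy pool, 2.75 in the adult sham pool and 5.75 in the adult tenotomy pool. Here both tenotomy libraries were above both sham libraries, the reverse of Pik3ca. The young tenotomy level was above the adult sham level by less than counting error (ratio 1.22, 0.787 to 1.93). The ratio of tenotomy to sham was 1.54 at 7 days (1.01 to 2.34) and 2.09 at 6 months (1.37 to 3.25), and on the log2 scale used for calls it stayed below 2-fold at both ages. By the coding length the 7-day interval reached down to 0.861.

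Pik3cd encodes p110-delta, the class IA subunit of leukocytes (chr4:149649168-149701629). It stood at 2.87 FPKM in the young sham pool, 4.15 in the young tenotomy pool, 4.51 in the adult sham pool and 10.5 in the adult tenotomy pool. The adult tenotomy library stood apart from the other 3, which did not differ from their neighbours beyond counting error. The ratio was 1.44 at 7 days (0.954 to 2.26) and 2.32 at 6 months (1.60 to 3.45). Pik3cd passed Pik3ca only in the adult tenotomy pool: the ratio of Pik3ca to Pik3cd FPKM was 6.00 in the young sham pool, 2.39 after tenotomy at 7 days, 2.60 in the adult sham pool and 0.809 after tenotomy at 6 months.

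Pik3cg encodes p110-gamma, the class IB subunit (chr12:32173397-32208649). It was among the lowest members, at 1.57 FPKM in the young sham pool, 3.70 in the young tenotomy pool, 1.47 in the adult sham pool and 4.24 in the adult tenotomy pool. The 2 sham levels did not differ beyond counting error, nor did the 2 tenotomy levels, and both tenotomy levels were above both sham levels. The ratio was 2.36 at 7 days (1.36 to 4.16) and 2.89 at 6 months (1.48 to 5.90), resting on 19 and 54 fragments at 7 days and on 12 and 46 at 6 months. Its 7-day log2 ratio with the pseudocount was 0.87, so it was not called there although the plain ratio was above 2.

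The 4 catalytic genes summed to 23.8 FPKM after sham and 21.1 after tenotomy at 7 days, and to 20.5 and 28.9 at 6 months, and their make-up differed more than the sums. Pik3cd and Pik3cg together made up 18.6% of it in the young sham pool (approximate counting interval 14.7% to 23.3%) and 37.2% after tenotomy (32.4% to 42.2%). At 6 months they made up 29.2% after sham (23.3% to 36.0%) and 50.8% after tenotomy (46.0% to 55.7%). The share of Pik3ca was 72.3% and 47.0% at 7 days and 57.4% and 29.3% at 6 months. At both ages the sham and tenotomy intervals of either share did not overlap. A share within a library does not depend on how libraries or tables were scaled to each other.

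**Figure D2:**
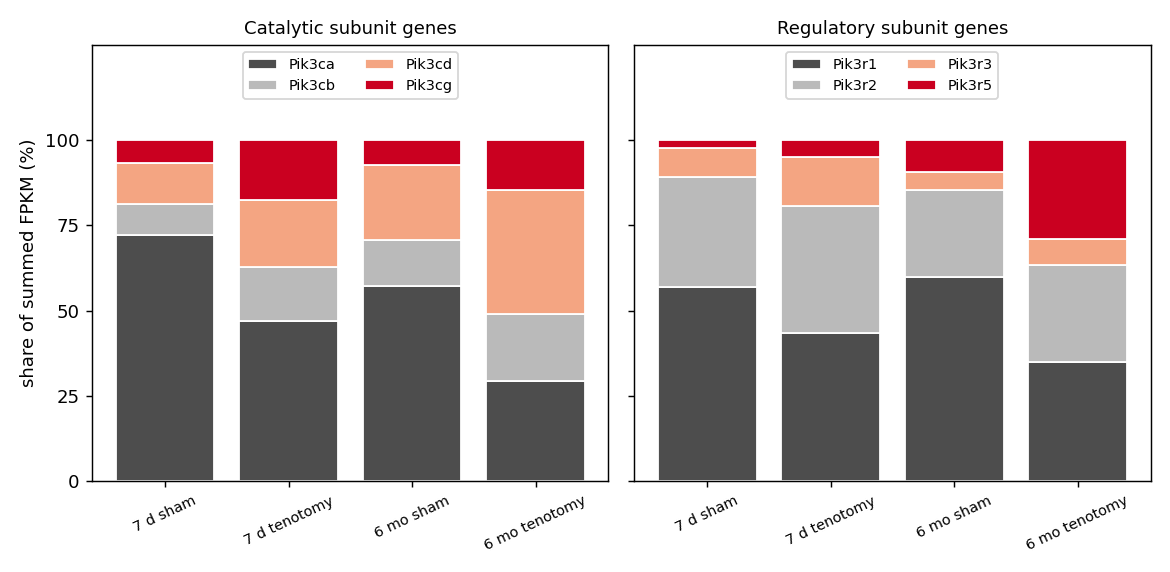
Share in percent of the summed FPKM of the 4 catalytic genes (left) and the 4 regulatory genes (right) in each pooled library, 1 stacked bar per library. Pik3ca shrinks from 72.3% to 47.0% of the catalytic sum after tenotomy at 7 days and from 57.4% to 29.3% at 6 months, and Pik3r5 reaches 29.0% of the regulatory sum in the adult tenotomy pool.

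Pik3r1, the gene of p85-alpha and its shorter forms, which stabilise class IA catalytic subunits and hold them inactive until a receptor is engaged, was the highest member in 3 of the 4 libraries (chr13:101680762-101768217). It stood at 35.2 FPKM in the young sham pool, 27.4 in the young tenotomy pool, 31.8 in the adult sham pool and 15.5 in the adult tenotomy pool. The first 3 did not differ from their neighbours beyond counting error, and the adult tenotomy library was below them. After tenotomy it was 1.28-fold lower at 7 days (1.07 to 1.54, an interval that took in 1 by the coding length) and 2.05-fold lower at 6 months (1.58 to 2.65). Its p85, p55 and p50 forms share one row and cannot be told apart here.

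Pik3r2, the gene of p85-beta (chr8:70768181-70776712), stood at 20.1 FPKM in the young sham pool, 23.5 in the young tenotomy pool, 13.5 in the adult sham pool and 12.5 in the adult tenotomy pool. Sham and tenotomy differed by less than counting error at both ages, with ratios of 1.17 (0.956 to 1.45) and 0.926 (0.665 to 1.27), and the adult direction turned when libraries were rescaled to a common sum without muscle markers and small RNAs. Pik3r3, the gene of p55-gamma (chr4:116221914-116303056), stood at 5.22 FPKM in the young sham pool, 8.96 in the young tenotomy pool, 2.78 in the adult sham pool and 3.43 in the adult tenotomy pool. Its ratio was 1.72 at 7 days (1.28 to 2.30) and 1.23 at 6 months (0.743 to 2.14), and the 7-day interval took in 1 by the coding length (0.920 to 3.21). Both young pools were above both adult pools for Pik3r2 and for Pik3r3. The 2 ages come from separate tables, and the sources used here do not give whether these were scaled to each other.

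Pik3r5 encodes p101, the regulatory subunit that couples p110-gamma to G protein beta-gamma (chr11:68432125-68497846). It stood at 1.44 FPKM in the young sham pool, 3.15 in the young tenotomy pool, 4.94 in the adult sham pool and 12.9 in the adult tenotomy pool. It had the widest spread of the 10 members, with the highest library 8.95-fold above the lowest (5.32 to 16.2). The ratio of tenotomy to sham was 2.19 at 7 days (1.22 to 4.19) and 2.60 at 6 months (1.78 to 3.84). Pik3r5 was 0.915 times Pik3cg in FPKM in the young sham pool and 0.851 times in the young tenotomy pool, but 3.36 and 3.03 times in the adult pools. Pik3r6, the gene of the other class IB regulatory subunit, stood at 2.22 and 1.91 FPKM at 7 days and 3.11 and 3.80 at 6 months, sham first.

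Among the 4 regulatory genes Pik3r5 took 2.32% of the summed FPKM in the young sham pool, 5.00% in the young tenotomy pool, 9.31% in the adult sham pool and 29.0% in the adult tenotomy pool. Class IA regulatory genes (Pik3r1, Pik3r2 and Pik3r3) summed to 2.71 times the class IA catalytic genes (Pik3ca, Pik3cb and Pik3cd) in the young sham pool, 3.44 times in the young tenotomy pool, 2.53 times in the adult sham pool and 1.28 times in the adult tenotomy pool. The adult tenotomy library thus had the lowest such ratio of RNA per length among the 4.

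Pik3ap1 encodes BCAP, a cytoplasmic adaptor of B cells and macrophages that brings class IA PI3K to receptors once it is tyrosine-phosphorylated (chr19:41274218-41385070). It stood at 4.48 FPKM in the young sham pool, 10.2 in the young tenotomy pool, 7.35 in the adult sham pool and 15.7 in the adult tenotomy pool. Each of these levels differed from its neighbour in the order by more than counting error, but by the coding length the interval of adult sham over young sham took in 1 (0.919 to 2.82). For young tenotomy over adult sham (1.39, 1.02 to 1.94) no interval by the coding length was worked out. The ratio of tenotomy to sham was close at both ages, 2.28 at 7 days (1.66 to 3.23) and 2.13 at 6 months (1.58 to 2.97). The B cell genes Cd79a, Cd79b and Ms4a1 lay between 0 and 3.94 FPKM.

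Inpp5d encodes SHIP1, which dephosphorylates PIP3 in blood cells (chr1:87620312-87720508), and its promoter stretch shown above holds GAGGAAGT. It stood at 6.08 FPKM in the young sham pool, 7.75 in the young tenotomy pool, 5.63 in the adult sham pool and 18.9 in the adult tenotomy pool. The first 3 did not differ from their neighbours beyond counting error, and the fourth stood above them. The ratio was 1.27 at 7 days (0.951 to 1.72) and 3.36 at 6 months (2.43 to 4.67). In the adult tenotomy pool Inpp5d was the highest of the 10 members, ahead of Pik3ap1 and Pik3r1, although it had been well below Pik3r1 in the other libraries.

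**Figure D3:**
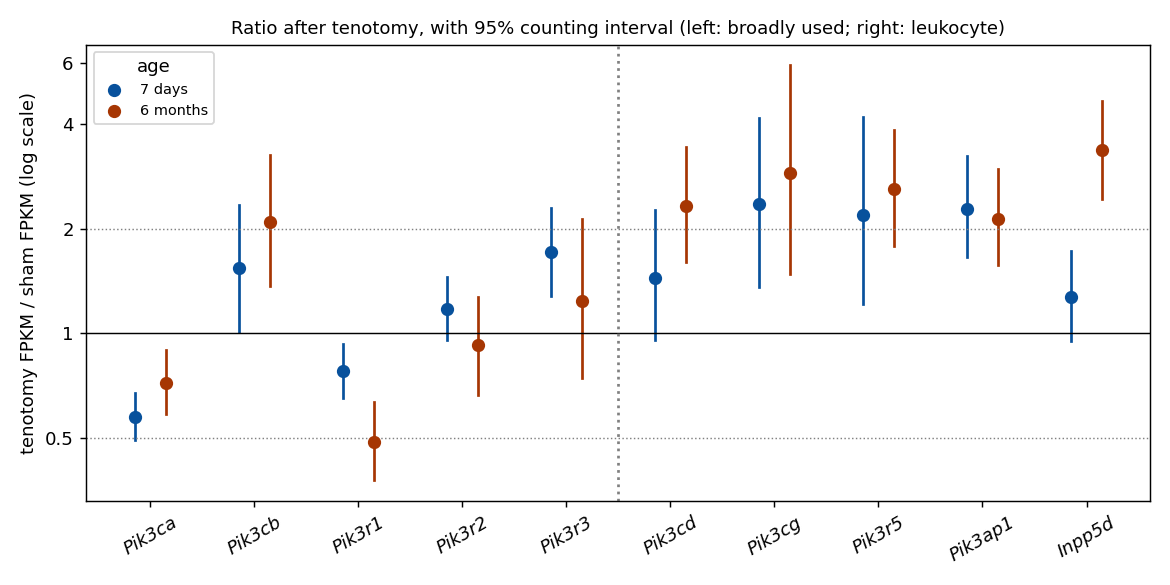
Ratio of tenotomy to sham FPKM for each member on a log axis at 7 days (blue) and 6 months (brown), with vertical lines for the 95% counting intervals and dotted lines at 2-fold. Of the leukocyte genes on the right, Inpp5d is the one whose intervals at the 2 ages do not overlap (0.951 to 1.72 and 2.43 to 4.67).

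The difference between ages, taken as the 7-day minus the 6-month log2 ratio, exceeded counting error for 2 members. For Inpp5d it was -1.28 (without a pseudocount -1.40, interval -2.01 to -0.79), and it was the only member past 1 on this scale in either direction, where 9.39% of all rows were at or below -1 and 5.98% at or above 1. For Pik3r1 it was 0.64 (without a pseudocount 0.68, interval 0.24 to 1.12). For Pik3cd it was -0.64, with an interval that took in 0 (-1.47 to 0.11). The median difference was -0.45 in the leukocyte set and 0.32 in the broadly used set, beside -0.05 over all rows. Counting error is the least error these differences have, and the spread between pools was not measured.

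In the authors' deposited tables no member was marked significant at either age. The smallest deposited p-value of a member was 0.0249 with a q-value of 0.862 (Inpp5d, 6 months), followed by 0.0756 with a q-value of 0.949 (Pik3r5, 6 months). The tables list Pik3cb and Pik3r5 at 7 days and Pik3cg and Pik3r3 at 6 months as not tested.

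Leukocyte marker genes were higher in the same libraries. The 12 pan-leukocyte markers summed to 96.0 FPKM in the young sham pool, 254 in the young tenotomy pool, 131 in the adult sham pool and 353 in the adult tenotomy pool. At the 2-fold threshold 7 of the 12 were higher at 7 days and 10 of the 12 at 6 months, none was lower, and none was at 0 in any library. Macrophage markers (10 of 15 higher at 7 days, 14 of 15 at 6 months) were higher too. So were neutrophil markers, with 8 of 9 at 7 days and 7 of 9 at 6 months among those with a mean of at least 1 FPKM. Macrophage markers summed to 502, 1284, 584 and 2237 FPKM over the young sham, young tenotomy, adult sham and adult tenotomy pools. Neutrophil markers summed to 23.9, 89.1, 27.4 and 148 FPKM in the same order. T cell markers summed to 1.10, 4.32, 2.79 and 4.27 FPKM in that order, and Cd3d was listed at 0 in all 4 libraries. Cd4, the only T cell marker with a mean of at least 1 FPKM, was higher at both ages. It stood at 0.902 and 3.05 FPKM at 7 days and 0.575 and 2.98 at 6 months, sham first. The part of leukocyte number in the members' differences was not tested.

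Set against the pan-leukocyte sum, the 5 leukocyte members together amounted to 17.1% of it in the young sham pool, 11.4% in the young tenotomy pool, 18.2% in the adult sham pool and 17.6% in the adult tenotomy pool. The adult share was nearly the same after sham and tenotomy, and the young share was lower after tenotomy. Inpp5d went from 6.33% to 3.05% of the marker sum at 7 days and from 4.30% to 5.37% at 6 months. Pik3cg held 1.64% and 1.46% at 7 days and 1.12% and 1.20% at 6 months. The choice of marker mattered: against Ptprc alone, the gene of the leukocyte surface phosphatase CD45, the summed members were 4.39 times its FPKM after sham and 2.55 times after tenotomy at 7 days, and 4.98 and 2.44 times at 6 months.

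Genes that work beside the leukocyte subunits also had medians above 0. Of 19 leukocyte kinases and adaptors next to class I PI3K, 5 passed 2-fold upwards at 7 days and 12 at 6 months, none downwards, and the medians were 0.73 and 1.23 on the log2 scale. Fgr, a Src-family kinase of myeloid cells, stood at 0.475 and 2.81 FPKM at 7 days and 1.94 and 9.82 at 6 months, sham first. Btk, a kinase that PIP3 brings to the membrane, stood at 2.39 and 3.39 FPKM at 7 days and 0.713 and 5.28 at 6 months. Was, an actin regulator of blood cells, stood at 2.55 and 3.53 FPKM at 7 days and 1.17 and 6.95 at 6 months, and Hcls1, another, at 2.86 and 9.53 and at 4.58 and 10.6 FPKM.

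Of 11 genes with a mean of at least 1 FPKM among G protein inputs of class IB, 3 were higher at 7 days and 6 at 6 months, and none was lower (medians 0.75 and 1.08). Fpr1 and Fpr2 fell below that mean, with log2 ratios of 0.65 and 0.35 at 7 days and 1.83 and 1.11 at 6 months. Ccr2, the chemokine receptor of monocytes for Ccl2, stood at 4.19 and 11.7 FPKM at 7 days and 11.8 and 26.1 at 6 months. Cxcr4, which many cell types use, stood at 4.60 and 14.5 FPKM at 7 days and 6.53 and 25.5 at 6 months. The complement receptor gene C5ar1 was called at 6 months only, with 3.89 and 16.1 FPKM there and 5.06 and 9.21 at 7 days, and the difference between ages was not tested.

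**Figure D4:**
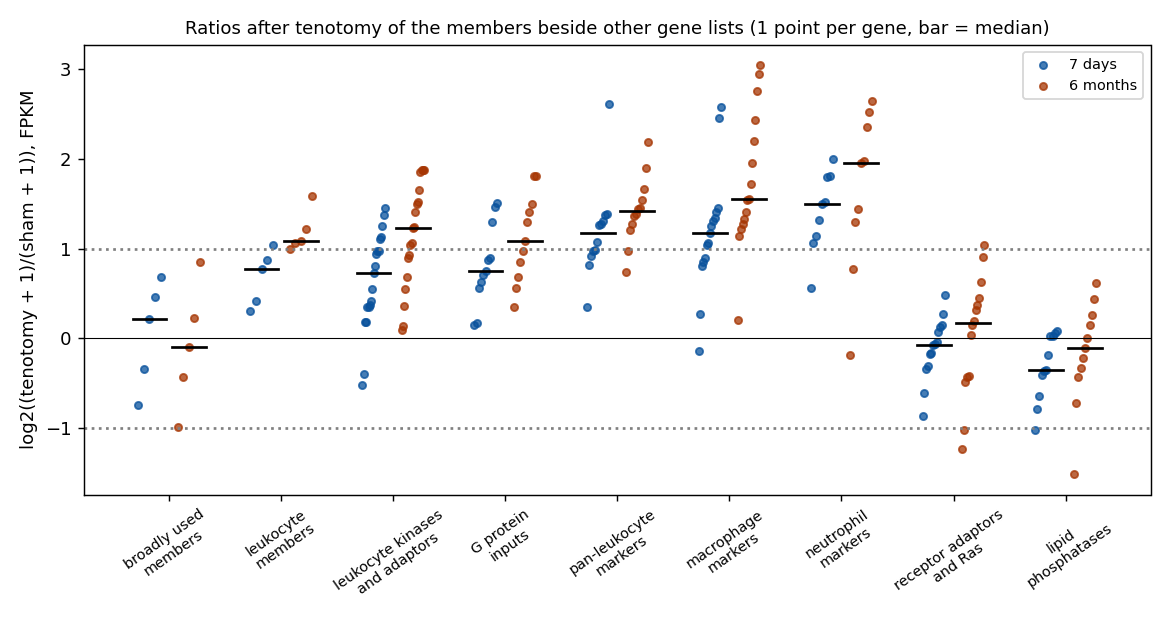
Log2 ratios of tenotomy to sham (pseudocount of 1 FPKM) at 7 days (blue) and 6 months (brown) for the members and for other gene lists, 1 point per gene with a mean of at least 1 FPKM, black bars at the medians and dotted lines at 2-fold. The medians of the leukocyte members are 0.77 and 1.09, beside 0.73 and 1.23 for the leukocyte kinases and adaptors, and those of the broadly used members are 0.22 and -0.10.

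The inputs of the broadly used enzymes and the other lipid phosphatases had medians nearer 0, at -0.07 and 0.17 for the inputs and -0.35 and -0.11 for the phosphatases (7 days first). Of 14 receptor adaptors and Ras genes, none was called at 7 days, and at 6 months Cbl, an adaptor and ubiquitin ligase, was higher (6.26 and 13.9 FPKM) while 2 genes of insulin receptor substrates were lower, Irs1 with 20.5 and 9.56 FPKM (sham first) and Irs2 with 13.8 and 5.29. Inppl1, the gene of the broadly used SHIP2, stood at 26.5 and 12.5 FPKM at 7 days, a log2 ratio of -1.02, and at 36.5 and 21.6 at 6 months. The FPKM of Inpp5d was 0.229 times that of Inppl1 in the young sham pool, 0.619 times in the young tenotomy pool, 0.154 times in the adult sham pool and 0.876 times in the adult tenotomy pool. Inpp5a, an inositol phosphate phosphatase gene, was lower at 6 months (45.4 and 15.2 FPKM), as was Pik3ip1, the gene of a membrane inhibitor of PI3K (12.8 and 5.03 FPKM). Among the 11 phosphatase genes with a mean of at least 1 FPKM these 2 calls, Inppl1 at 7 days and Inpp5a at 6 months, were the only ones. All 12 skeletal muscle genes were lower by at least 2-fold in both tenotomy libraries, with the sums given above. Tenocyte genes had a median log2 ratio of -0.60 at 7 days, with 1 of 8 lower (Fmod) and 1 higher (Thbs4), and of -0.90 at 6 months, with 4 of 8 lower (Scx, Mkx, Fmod and Kera). Adipocyte genes summed to 1472 FPKM in the young sham pool, 588 in the young tenotomy pool, 148 in the adult sham pool and 260 in the adult tenotomy pool, and 4 of 5 were lower at 7 days and none at 6 months. No gene of these 3 lists was at 0 in any library. The part of muscle, tenocyte or fat RNA in the lower levels of Pik3ca, Pik3r1, Irs1, Irs2, Inppl1 and Inpp5a was not tested.

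In sham tendon the 2 ages differed by at least 2-fold for 1 member, Pik3r5, which was higher at 6 months, where 5.93% of all rows were. None was lower, against 12.6% of rows. Between the tenotomy libraries 3 members were higher at 6 months (Pik3cd, Pik3r5 and Inpp5d), where 6.49% of rows were, and 1 was lower (Pik3r3), where 8.99% were. These comparisons cross 2 tables, and they share libraries with the comparisons of tenotomy with sham. Pan-leukocyte markers had a median log2 ratio of 0.71 between the same tenotomy libraries, and 4 of the 12 were higher there. Macrophage markers had a median of 0.70, with 3 of 15 higher and 0 lower. Neutrophil markers had a median of 0.78, with 4 of 9 higher and 2 lower. Mast cell markers went the other way, with a median of -3.73 and 3 of 3 lower.

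The genes nearest to the mean profile of each set were found over the 4 libraries among 8609 other rows with a mean of at least 5 FPKM, by the Euclidean distance between profiles of log2(FPKM + 1) centred on their own means. Nearest to the leukocyte set were Cyth4, a cytohesin gene (9.93, 14.9, 13.5 and 33.0 FPKM over the young sham, young tenotomy, adult sham and adult tenotomy pools; distance 0.11), Trim30a (0.13), the phospholipid transfer protein gene Pltp (0.14), the guanine deaminase gene Gda (0.15) and the NF-kappa-B subunit gene Relb (0.16). The members themselves lay farther from their mean, from 0.25 (Pik3cd) to 0.81 (Pik3r5). Nearest to the broadly used set were Tubg1 (gamma-tubulin), Inpp5b (an inositol phosphatase), Rab30, Ggnbp2 and Shank3, at 0.02 to 0.04, while its members lay at 0.31 (Pik3r2) to 1.11 (Pik3cb). The mean profile of the broadly used set spanned -0.25 to 0.23 on the log2 scale, less than any of its members did.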

How the data were processed

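RNA was pooled by group and each of the 4 pools gave 1 library, made from 10 ng of RNA with integrity values below 8, after ribosomal RNA depletion with a directional kit, and read as paired 75-base reads, per the labels' protocols. TopHat, Cufflinks and the build mm10 stand in the submitters' processing notes, with no version or role, and the sources used here do not give the gene annotation. The authors deposited FPKM for 2 libraries in each of 2 tables, taken as FPKM from the table layout. The authors' deposited tables also hold p-values with q-values, printed unaltered. The labels name an exact test for differential expression without tying it to these columns.

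The members and all gene lists were chosen with earlier results of these data known. Ratios used a pseudocount of 1 FPKM; rows with a mean of at least 1 FPKM over the 4 libraries were counted, and 2-fold was the call. Named genes were the members, Inppl1, up to 3 members per pathway list and age with the largest ratios past 2-fold, and the 5 nearest genes per set; values given for other marker genes, Pik3r6 and Ptprc were chosen after being seen. Older symbols were matched through RefSeq for Adgre1, Hras and Spi1; Ly6g was not found. Depth came from single-transcript genes of at least 800 bases, with 200 bases taken off each length; low values were whole within 0.1 for 74.3% to 77.3% of the genes used. Intervals of catalytic and regulatory shares and of differences between ages are approximate. Protein sequences were not analysed here, and some genes of the pathway lists that this naming rule picks are not reported here, while all 10 members are. The steps were tested on simulated data. A total of 11 alternatives were planned and 1 was added after seeing the data. Deposited starts were raised by 1 to count from 1. Tools were pandas 2.3.3, NumPy 2.4.6, SciPy 1.17.1 and, for plots, matplotlib 3.10.9, run under Python 3.11.15.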

Additional observations from a re-analysis of the deposited data

How the results depend on the processing

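No paired analysis was possible because each group is 1 pooled library. In every setting run, the leukocyte medians stayed above 0 at both ages. A pseudocount of 5 FPKM lowered them to 0.34 (7 days) and 0.74 (6 months), left 0 members called at 7 days and 1 at 6 months (Inpp5d), and called 255 rows higher and 665 lower at 7 days and 416 and 618 at 6 months. A pseudocount of 0.5 FPKM called 2 members higher and 0 lower at 7 days (799 and 1379 of all rows) and 5 higher and 1 lower (Pik3r1) at 6 months (1452 and 1491 of all rows). A mean floor of 5 FPKM left 437 and 737 rows called higher at 7 days and 6 months. A 1.5-fold call gave 4 members higher and 1 lower (Pik3ca) at 7 days and 6 higher and 1 lower (Pik3r1) at 6 months, with 1813 rows higher and 2275 lower at 7 days and 2574 and 2703 at 6 months. By the authors' significant column, 0 members were called at either age, with 3 rows higher and 86 lower at 7 days and 0 of either kind at 6 months. The broadly used median depended on the scaling and on single members. With a common FPKM sum it was 0.38 at 7 days, where 2 members of the leukocyte set were called higher (Pik3cg and Pik3ap1). With a common sum without muscle markers and small RNAs it was 0.11, of the opposite sign, at 6 months. Those scalings move every ratio, before the pseudocount, by 0.17 (7 days) and 0.23 (6 months) on the log2 scale. They also shift the balance of calls: 953 rows were higher and 1054 lower at 7 days with the common sum (661 and 1216 as deposited), and 1740 and 908 at 6 months without muscle and small RNAs (1184 and 1289 as deposited), where Pik3cb and Pik3ap1 also passed 2-fold. Without Pik3cb or Pik3r3 its 7-day median was -0.0652 and without Pik3r2 0.0533. Its difference between ages was 0.00458 without Pik3r1 or Pik3r3 and 0.0693 without Pik3r2. Without Cd52 the leukocyte members were 18.2% of the marker sum after sham and 13.6% after tenotomy at 7 days. At 6 months they were 20.8% after sham and 19.8% after tenotomy. The cause was not tested in these cases. Depth limits Pik3cg most, with 12 fragments in the 6-month sham library.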
